A study of Mus musculus with 26 samples.

Results

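RNA polymerase II (Pol II) was mapped by chromatin immunoprecipitation and sequencing (ChIP-seq) in 2 stable lines of RAW264.7, a mouse macrophage-like cell line, without lipopolysaccharide (LPS). One line carried doxycycline-inducible HA-tagged Nur77 and the other doxycycline-inducible GFP. Both lines received 50 ng/ml doxycycline for 18 h, so the transgene was induced in the control as well, and both were crosslinked with 1% formaldehyde for 10 min. Each line gave 2 Pol II libraries, 4 of the 26 samples of the series. The labels name 1 line per construct, so that line and construct cannot be told apart, and no label ties the replicates to different cultures, so p-values measure only the spread between these libraries, which may be technical. Peaks of the 4 libraries that shared at least 1 bp were merged, which gave 40703 regions. Of these, 19991 (49.1%) held a peak in all 4 libraries and were tested.

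Pol II transcribes protein-coding genes. Its ChIP-seq signal gathers just downstream of the start site, where the enzyme pauses, and spreads over the bodies of genes that are being transcribed; weaker signal lies at active enhancers. Nur77, encoded by Nr4a1, is an orphan nuclear receptor of the NR4A family that macrophages induce within the first hours of inflammatory stimulation. As a monomer it binds the NBRE motif, AAAGGTCA, and it is known to restrain inflammatory genes in macrophages.

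The libraries held 11.9 and 19.96 M mapped tags in the GFP line and 12.8 and 18.1 M in the Nur77 line, of which 53.5% to 61.9% lay in peaks. Nur77 replicate 1 stood apart: its estimated fragment length was 1550 bp against 256 to 318 bp in the other 3 libraries, its median peak 2249 bp against 1300 to 1351 bp, and it had 27137 peaks against 32030 to 33796. Pol II regions covered 69.5 ± 2.7 Mb (SD, n = 2) in the GFP line and 71.3 ± 1.5 Mb (SD, n = 2) in the Nur77 line, a log2 difference of 0.037 (two-sided exact permutation test, p = 0.667). The tags they held, per 10 M mapped, summed to 5.56 ± 0.29 M and 5.95 ± 0.34 M (SD, n = 2), a log2 difference of 0.098 (exact permutation test, p = 0.667; the smallest p that 2 against 2 libraries allow is 0.333). All 16 macrophage markers examined, among them Cd68, Lyz2 and Spi1, held a region in all 4 libraries. For 9 of the 16, but not Spi1, such a region lay over the gene's own start site. Of 30 markers of other cell types 8 held a region in all 4 libraries, none of them over its own start site. Another 19, including Cd3e, Col1a1, Epcam and Alb, held no region in any library. Signal at the 8 was not always lower than at macrophage markers. Cd4 held 643 and 505 tags per 10 M in the GFP libraries and 446 and 394 in the Nur77 libraries. The macrophage marker Adgre1 held 53.0 and 53.9 against 35.5 and 68.9.

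At Nr4a1 itself (mm10, chromosome 15) Pol II signal was low in all 4 libraries. The region over the start site, chr15:101265980-101267711, held 39.1 and 21.0 tags in the GFP libraries and 16.4 and 12.7 in the Nur77 libraries. Here and below, untreated Pol II tags are per 10 M mapped, after TMM scaling between libraries unless called deposited. Both Nur77 values lay below both GFP values, with a log2 difference of -0.94 ± 0.50 (SE; limma, adjusted p = 0.497). The other 2 regions over the gene lie upstream of that start, and the first contains the 5′ end of the gene's RefSeq span (chr15:101253902). They gave log2 differences of 0.79 ± 0.54 and 0.53 ± 0.41 (limma, adjusted p = 0.600 and 0.661). The first held 29.1 and 33.9 tags in the GFP libraries and 33.2 and 90.7 in the Nur77 libraries. Without Nur77 replicate 2 its difference was 0.080. The second held 22.9 and 28.3 tags against 42.6 and 32.3. The covered length of the 2 upstream regions went from 1.26 to 2.49 kb and from 0.873 to 1.39 kb. Per base their differences were -0.14 and -0.04. The per-base values were not centred again, and their median over all tested regions was -0.19, so both lay above it. That median applies to every per-base difference below. The construct is a transgene, so these regions of the endogenous gene do not check the labels. Nr4a2, another member of the family with far more signal, held 1066 and 995 tags in the GFP libraries and 700 and 805 in the Nur77 libraries (log2 -0.46 ± 0.16, limma, adjusted p = 0.299).

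Between the lines 4 regions differed between the lines past an adjusted p of 0.05 (limma with trend on log2 tags + 1, Benjamini-Hochberg over all 19991 regions): 3 were higher in the Nur77 line (0.015% of tested regions) and 1 was lower (0.005%). At an unadjusted p under 0.05 there were 1249 higher (6.25%) and 1377 lower (6.89%), or 1957 and 829 with no scaling beyond the deposited one, which moves the median of all regions from 0.0050 to 0.18. In simulated data of the same size, 200 regions were changed and the libraries drawn independently. There 0% of 2-fold, 69% of 4-fold and 97% of 8-fold changes were recovered, with 0, 10 and 10 false calls. Recovery depends on those settings, so it does not fix which differences were detectable in these libraries. Without one library at a time the count ran from 8 to 368 higher and from 18 to 283 lower, the most without GFP replicate 2. The 4 calls were all lost (limma, adjusted p = 0.230 each) when regions with a peak in at least 2 of the 4 libraries were tested. With the replicate number as a block the counts were 1255 higher and 1516 lower, but 2 pairs cannot show that the numbers pair the samples.

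The region with the smallest p lay inside Cntn4, which encodes contactin-4, an adhesion molecule of axons. It spans chr6:106433093-106442844 and contains no annotated start site. It held 236 and 263 tags in the GFP libraries and 2375 and 1978 in the Nur77 libraries, a log2 difference of 3.12 ± 0.17 (SE; limma, adjusted p = 0.013). Its covered length rose from 3.22 to 9.15 kb, and per base the log2 difference was 1.604. H3K27ac, the histone mark of active promoters and enhancers, differed there by a log2 of only 0.056, whereas Pol II after LPS (500 ng/ml for 1 h, 2 libraries per line) differed by 2.15. No other gene on a list of 23 neural adhesion and synapse genes was called: 12 held no region at all, and of the 6 lead regions tested the highest after Cntn4 was Nrxn2 at 0.77 and the lowest Cntnap2 at -1.47.

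Bdp1, a subunit of TFIIIB, the factor that brings RNA polymerase III to its genes, held another such region. It spans chr13:100097441-100105385 and contains the Bdp1 start site. Tags were 122 and 171 in the GFP libraries and 1522 and 1313 in the Nur77 libraries (log2 3.28 ± 0.21, limma, adjusted p = 0.014). The signal covered 1.63 kb in the GFP line and 7.60 kb in the Nur77 line, and per base the log2 difference was 1.00. All 3 untreated HA libraries of the Nur77 line had a peak there, as they did in 37.5% of all tested regions. At the Cntn4 region the 3 HA libraries held 0, 246.5 and 68.9 tags. H3K27ac at Bdp1 differed by a log2 of 1.26 and Pol II after LPS by 1.36. The last of the 3, at the predicted gene Gm41046 (chr13:102662809-102670020), also contained a start site and an HA peak in all 3 libraries. It held 134 and 90.6 tags in the GFP libraries and 978 and 810 in the Nur77 libraries (log2 3.00 ± 0.24, limma, adjusted p = 0.038). H3K27ac differed there by 2.72 and Pol II after LPS by 3.06. Its adjusted p was 0.064 once values were centred within each chromosome and 0.069 in a fit of all 8 Pol II libraries, those after LPS included.

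The lower region spans chr3:79462839-79508145 inside Fnip2, which encodes a folliculin-interacting protein, and overlaps the end of Gm17359; it contains no annotated start site. It held 876 and 762 tags in the GFP libraries and 84.8 and 99.4 in the Nur77 libraries (log2 -3.14 ± 0.19, limma, adjusted p = 0.013). Covered length fell from 41.4 to 6.53 kb, so per base the log2 difference was -0.46 (limma, adjusted p = 0.621). The region overlapped regions called in the untreated input libraries, which had no immunoprecipitation, at 101 tags in the GFP line and 34.2 in the Nur77 line. H3K27ac peaks that touch the region held 9617 and 873 tags in the GFP libraries and 738 and 704 in the Nur77 libraries. These sums can include signal outside the region. GFP replicate 1 carried most of the difference. Pol II after LPS was 647 and 262 tags against 64.9 and 270, and the lines overlapped. No untreated HA library had a peak in the region. The region left the test when those over input were removed, and in the fit of all 8 libraries its log2 difference was -3.15 with an adjusted p of 0.128 (limma).

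**Figure D1:**
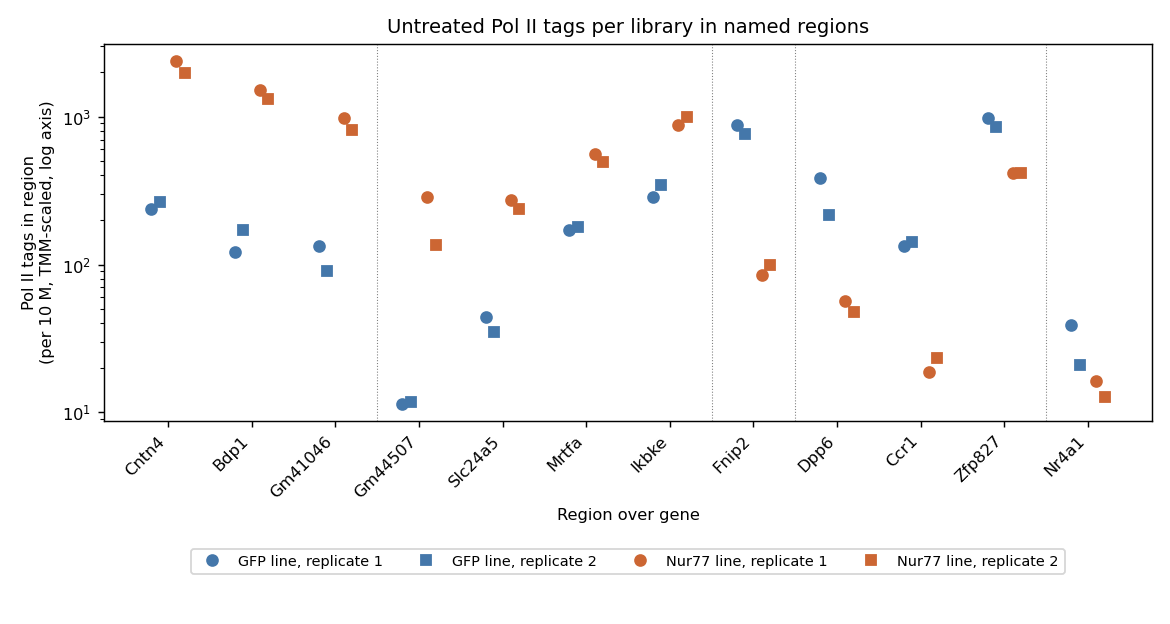
Tags per library (per 10 M, TMM-scaled, log axis) in 12 regions, each named by its gene; blue, GFP line; orange, Nur77 line; circles, replicate 1; squares, replicate 2. Dotted lines separate the 3 regions called higher, 4 that are higher without passing, the Fnip2 region called lower, 3 that are lower without passing, and the Nr4a1 start site, where all 4 values are below 40.

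The next regions over genes did not pass the threshold, and their values are given as such. Gm44507 (chr7:98413525-98416910) had the largest separation, with 11.4 and 11.8 tags in the GFP libraries and 288 and 135 in the Nur77 libraries (log2 3.98 ± 0.45, limma, adjusted p = 0.091). Slc24a5, a melanosomal cation exchanger, held 44.3 and 35.1 tags against 275 and 237 (log2 2.66 ± 0.28, limma, adjusted p = 0.091). Ikbke, the kinase IKK epsilon of the interferon and NF-kB pathways, held 284 and 345 tags against 876 and 991 (log2 1.57 ± 0.17, limma, adjusted p = 0.091). Each of these 3 regions contains the gene's start site. In each both Nur77 libraries lay above both GFP libraries, which the choice by smallest p favours and which held in 22.5% of all tested regions. Mrtfa, a coactivator of serum response factor, held 172 and 178 tags against 556 and 495 (log2 1.58 ± 0.17, limma, adjusted p = 0.091). Covered length was greater in the Nur77 line in all 4, and per base the differences were smaller. Gm44507 went from 0.644 to 2.61 kb and was at 1.98 per base, and Slc24a5 from 1.45 to 4.68 kb and was at 0.98. Ikbke went from 7.13 to 11.6 kb and was at 0.85 per base. Mrtfa went from 4.59 to 15.0 kb and was at -0.12, below 0 but above the per-base median of all tested regions, -0.19.

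On the lower side, Ccr1, a receptor for several CC chemokines, held 134 and 143 tags over its start site in the GFP libraries and 18.8 and 23.4 in the Nur77 libraries (log2 -2.66 ± 0.34, limma, adjusted p = 0.106). H3K27ac at the Ccr1 region differed by -1.62 and Pol II after LPS by -2.55. A region in Dpp6, an accessory subunit of neuronal potassium channels, held 384 and 215 tags against 56.6 and 48.1 (log2 -2.44 ± 0.33, limma, adjusted p = 0.111). Zfp827, which encodes a zinc-finger protein, held 973 and 852 tags over its start against 418 and 417 (log2 -1.12 ± 0.15, limma, adjusted p = 0.111). These 3 regions were picked by smallest p, which favours GFP and Nur77 values that do not overlap, and here they did not. Both Nur77 libraries lay below both GFP libraries in 21.1% of all tested regions.

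The 250 bases before the annotated start are shown for 7 start sites that lie in regions described here (GRCm38.p6, from RefSeq, 5′ to 3′ on the gene's strand). The 3 motifs searched on both strands were these: NBRE, AAAGGTCA; the AP-1 site TGACTCA, with its reverse complement TGAGTCA; and the cyclic AMP response element (CRE) TGACGTCA. Capitals mark a match. Where a gene has several starts, one in a tested region that holds the most of these motifs was shown. Gm44507 has 3 starts in the table, and Fhit and Aqp9 have 2 each. The first 3 belong to regions higher in the Nur77 line: Bdp1 (chr13:100104071-100104320, minus strand), Gm41046 (chr13:102666002-102666251, minus strand) and Gm44507 (chr7:98415616-98415865, minus strand).
Bdp1: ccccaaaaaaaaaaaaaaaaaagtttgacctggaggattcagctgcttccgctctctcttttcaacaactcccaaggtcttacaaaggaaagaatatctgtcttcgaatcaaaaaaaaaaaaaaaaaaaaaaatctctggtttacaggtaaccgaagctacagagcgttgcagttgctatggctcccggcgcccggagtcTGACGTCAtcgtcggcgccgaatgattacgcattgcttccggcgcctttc
Gm41046: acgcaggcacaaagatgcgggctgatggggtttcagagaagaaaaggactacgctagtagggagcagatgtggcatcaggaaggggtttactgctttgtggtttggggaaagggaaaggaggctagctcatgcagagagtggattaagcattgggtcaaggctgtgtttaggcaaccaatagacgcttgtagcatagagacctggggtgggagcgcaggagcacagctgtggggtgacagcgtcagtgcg
Gm44507: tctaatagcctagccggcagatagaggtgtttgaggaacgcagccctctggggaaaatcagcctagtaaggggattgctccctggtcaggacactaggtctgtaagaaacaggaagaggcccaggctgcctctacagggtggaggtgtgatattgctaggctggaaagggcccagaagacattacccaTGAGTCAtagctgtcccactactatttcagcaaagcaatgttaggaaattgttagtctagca

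Bdp1 holds a CRE that begins 50 bases before the start, and Gm44507 an AP-1 site 62 bases before the start shown. The CRE was found in 2.78% of windows at start sites in tested regions and in 1 window of each of the sets described next (0.694% of the higher and 0.518% of the lower). Among regions at least 2-fold higher in both Nur77 libraries, 3 of 144 start-site windows held an NBRE (2.08%), against 1.34% of all 32851 windows in the table and 0.809% of the 12243 in tested regions. The 3 belong to Fgd2, Fhit and Gm41546. Fgd2 (chr17:29360664-29360913, plus strand) encodes an exchange factor for the GTPase Cdc42; its region held 20.5 and 41.8 tags in the GFP libraries and 64.3 and 93.1 in the Nur77 libraries. Fhit (chr14:10453459-10453708, minus strand) encodes a dinucleotide hydrolase; its region held 119 and 122 tags against 319 and 204. Both regions had an HA peak in all 3 libraries (37.5% of all tested regions did) and neither passed the test.
Fgd2: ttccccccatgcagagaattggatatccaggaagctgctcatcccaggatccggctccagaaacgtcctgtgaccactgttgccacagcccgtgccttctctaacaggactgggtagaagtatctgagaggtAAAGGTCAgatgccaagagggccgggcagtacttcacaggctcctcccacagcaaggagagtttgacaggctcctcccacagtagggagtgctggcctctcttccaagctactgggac
Fhit: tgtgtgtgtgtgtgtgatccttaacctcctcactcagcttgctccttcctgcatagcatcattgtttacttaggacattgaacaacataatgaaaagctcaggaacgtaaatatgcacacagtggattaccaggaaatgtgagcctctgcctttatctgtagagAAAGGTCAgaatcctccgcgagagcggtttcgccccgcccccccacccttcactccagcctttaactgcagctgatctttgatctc

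Among regions at least 2-fold lower in both Nur77 libraries, 0 of 193 windows held an NBRE and 13 (6.74%) an AP-1 site. The AP-1 share was 5.56% in the higher set, 4.46% in all 32851 windows in the table and 3.19% in tested regions. Neighbouring start sites can share a region: the 13 windows lay in 11 regions, and the 8 of the higher set in 7. Aqp9 (chr9:71162634-71162883, minus strand), a water and glycerol channel, has its AP-1 site 24 bases before the start shown. Its region held 528 and 414 tags in the GFP libraries and 271 and 188 in the Nur77 libraries (log2 -1.05 ± 0.24, limma, adjusted p = 0.188). The window before Ccr1 (chr9:123968693-123968942, minus strand) is shown beside it, and none of the 3 motifs occurs in it. A match here is a run of letters, not a measured site.
Aqp9: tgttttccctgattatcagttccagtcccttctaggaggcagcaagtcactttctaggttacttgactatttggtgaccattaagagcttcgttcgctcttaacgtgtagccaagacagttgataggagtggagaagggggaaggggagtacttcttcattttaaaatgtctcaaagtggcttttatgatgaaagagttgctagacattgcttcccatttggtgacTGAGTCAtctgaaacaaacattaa
Ccr1: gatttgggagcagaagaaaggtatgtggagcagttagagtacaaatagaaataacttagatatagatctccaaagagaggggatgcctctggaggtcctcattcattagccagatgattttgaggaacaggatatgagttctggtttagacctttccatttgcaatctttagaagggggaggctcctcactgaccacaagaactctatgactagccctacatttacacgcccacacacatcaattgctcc

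Chromosome 12 departed from every other chromosome as a whole. Its 779 tested regions had a median log2 difference of -0.52, which is a ratio of 0.695, and 652 of them were negative; medians of the other autosomes and X lay between -0.02 and 0.05. Both Nur77 libraries lay below both GFP libraries in 64.4% of chromosome 12 regions, against 19.4% elsewhere, and above both in 4.75%, against 23.2%. A 2-fold difference in addition was seen in 15.1% lower and 0.642% higher (4.11% and 4.43% elsewhere), and an unadjusted p under 0.05 in 44.4% lower and 1.28% higher (5.37% and 6.45% elsewhere). No chromosome 12 region passed the threshold singly. The shift ran along the whole chromosome: in 12 windows of 10 Mb the median lay between -0.66 and -0.37. Each Nur77 library showed it against each GFP library, with medians of -0.58 to -0.50, so it did not rest on Nur77 replicate 1.

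The same chromosome stood apart in the other libraries of the 2 lines. The median log2 difference on chromosome 12 was -0.56 for untreated H3K27ac (-0.05 to 0.07 on the other autosomes and X) and -0.58 for Pol II after LPS (-0.03 to 0.07). Chromosome 12 held 5.06% and 5.36% of peak tags in the GFP Pol II libraries and 3.59% and 3.81% in the Nur77 libraries. Input chromatin without immunoprecipitation, 1 library per line, gave 3882 regions on chromosome 12 in the GFP line and 220 in the Nur77 line, a ratio of 17.6, whereas the ratio was 0.89 to 3.12 on the other autosomes and X. In the inputs taken after LPS the counts were 3250 and 381, a ratio of 8.53 against 0.403 to 0.807 elsewhere. Of the 779 tested regions 330 overlapped an untreated input region or peak. In the 449 without such overlap the median log2 difference was -0.52, and in the 330 with it -0.54. Peak lists do not give the DNA copy number of a line, so a difference in copies of chromosome 12 and a difference in signal per copy cannot be told apart, for Pol II and H3K27ac alike.

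**Figure D2:**
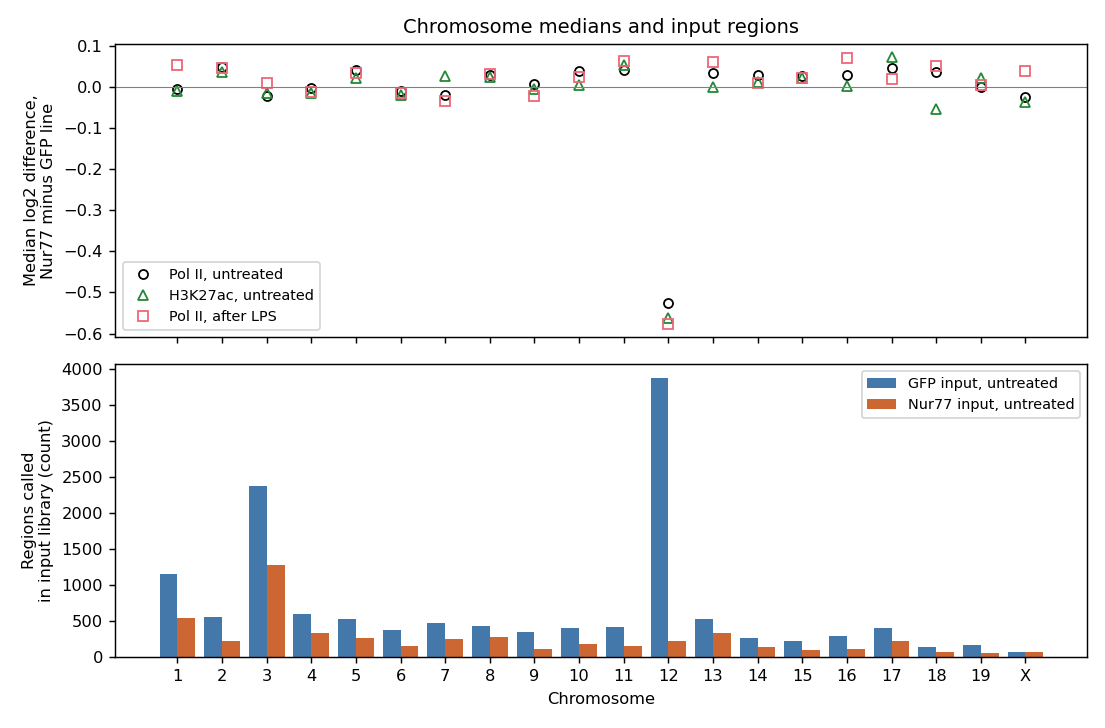
Top, median log2 difference (Nur77 minus GFP line) of the regions of each chromosome for untreated Pol II, untreated H3K27ac and Pol II after LPS; bottom, number of regions called in the untreated input library of each line. Chromosome Y, with 14 tested regions, is left out. All 3 medians of chromosome 12 lie below -0.5 while every other one lies within 0.1 of 0, and GFP input has 3882 regions there.

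**Figure D3:**
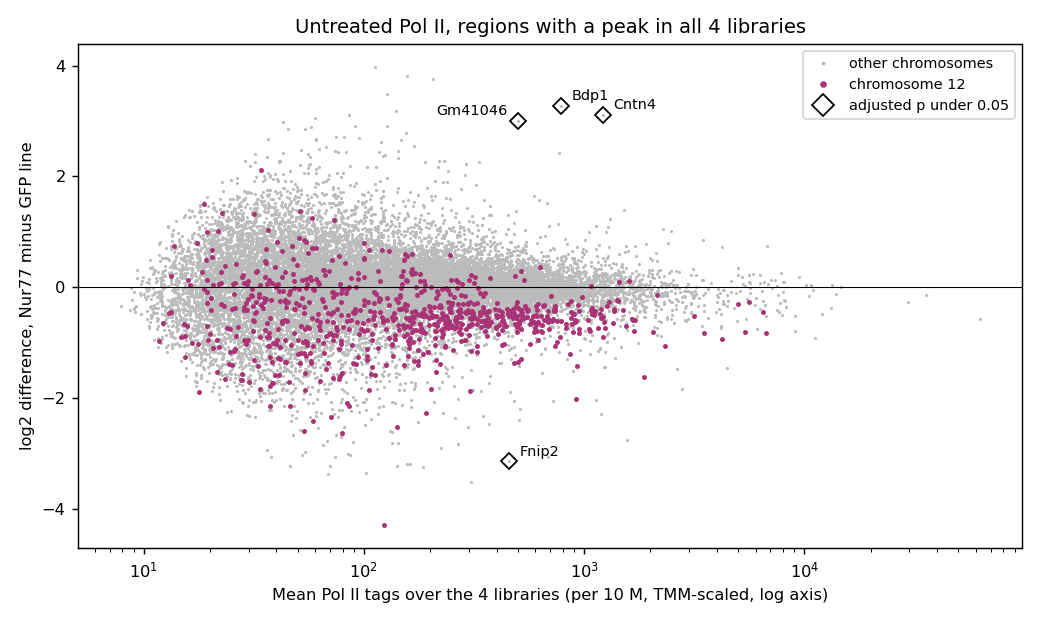
Log2 difference (Nur77 minus GFP line) of each of the 19991 tested regions against its mean tags over the 4 libraries (log axis); chromosome 12 in purple, diamonds around the 4 regions past an adjusted p of 0.05. Of the 779 chromosome 12 regions 652 lie below 0, and the 4 called regions lie elsewhere in the genome.

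Genes of the lists that lie on chromosome 12 shared the shift. Of 12 lead regions there, 10 were negative, and in the same number both Nur77 libraries lay below both GFP libraries (64.4% over all chromosome 12 regions). Their median was -0.61, and -0.08 after centring each chromosome. All but Rhob and Dld overlapped an untreated input region or peak. The 299 lead regions on other chromosomes had a median of -0.01, with 151 negative. Fos, the immediate-early AP-1 subunit, held 3867 and 1835 tags in the GFP libraries and 941 and 801 in the Nur77 libraries (log2 -1.62 ± 0.34, limma, adjusted p = 0.175), and -1.08 after centring (limma, adjusted p = 0.323). Batf, another AP-1 partner, went from -0.75 to -0.22 and Jdp2, a repressor that pairs with Jun proteins, from -0.60 to -0.06. Rhob, an immediate-early GTPase, went from -0.79 to -0.26, Npc2, the lysosomal cholesterol carrier, from -0.74 to -0.21, and Brf1, which joins Bdp1 in TFIIIB, from -0.56 to -0.02. Tnfaip2, a TNF-induced gene, held 3595 and 2750 tags against 1612 and 1402 and went from -1.06 to -0.53. The 2 that were not negative, Nfkbia at 0.10 and Zfp36l1 at 0.03, turned below 0 when single libraries were left out (Nfkbia -0.0077 without GFP replicate 1, Zfp36l1 -0.074 without GFP replicate 2 and -0.067 without Nur77 replicate 1) and became 0.64 and 0.56 after centring. None of the 12 passed either way.

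The 17 gene lists for this tissue held 392 genes. For each gene the tested region with the most tags was taken as its lead region. The test called 2 of these, Bdp1 in the Pol III list and Cntn4 in the neural list, and none in the other lists. Medians are given beside that of all tested regions, 0.0050, and the shares of all tested regions with unadjusted p under 0.05 (6.25% higher, 6.89% lower).

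Among transcription factors, 14 of the 15 AP-1 family genes were tested and the median was -0.15, or -0.05 without the 3 genes on chromosome 12. Besides those, the values spread both ways: Maff, a small Maf protein, held 57.2 and 117 tags in the GFP libraries and 224 and 305 in the Nur77 libraries (log2 1.67 ± 0.37, limma, adjusted p = 0.188), Fosl1 was at 0.42 and Fosl2 at -0.69. The 25 other immediate-early genes had a median of 0.02. Klf2, a factor known to hold macrophages quiescent, held 888 and 711 tags against 1262 and 2270 (log2 1.09 ± 0.29, limma, adjusted p = 0.213), and Klf4 was at -0.70. The 29 genes of the NF-kB pathway had a median of 0.08, with Ikbke at the top.

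Secreted factors and receptors were mixed. The 15 lead regions of cytokines and chemokines had a median of 0.04. The region that spans Tnf and its neighbours held 4913 and 5175 tags in the GFP libraries and 8160 and 8788 in the Nur77 libraries (log2 0.75 ± 0.23, limma, adjusted p = 0.265); it overlapped input. Csf1, the macrophage growth factor, held 194 and 126 tags against 60.5 and 69.0 (log2 -1.26 ± 0.31, limma, adjusted p = 0.203), also over input. Il1b, Il10 and Ccl5 were among 9 genes of the list without a region. The 10 chemokine receptors tested had a median of -0.16; after Ccr1 the lowest was Ccrl2 at -1.01, on chromosome 9 like Ccr1 and over input. Of 21 interferon response genes tested the median was -0.10. Ifi204, an interferon-induced DNA sensor, held 273 and 96.3 tags against 37.7 and 24.7 (log2 -2.37 ± 0.54, limma, adjusted p = 0.188), and Oasl1, of the oligoadenylate synthetase family, 245 and 250 against 461 and 404 (log2 0.80 ± 0.17, limma, adjusted p = 0.175).

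The lysosome and lipid handling list had a median of -0.31 over 26 lead regions, and both Nur77 libraries lay below both GFP libraries in 10 of them and above in 3, where the shares over all tested regions were 21.1% and 22.5%. Fabp5, a fatty-acid carrier, held 1075 and 1142 tags against 372 and 792 (log2 -1.03 ± 0.33), Abca1, which exports cholesterol, was at -0.92, and Scarb1, the HDL receptor, at 0.83. The 22 lead regions of macrophage markers had a median of -0.26, with 8 below and 3 above. One region over Lyz2 and Lyz1 held 8144 and 6981 tags against 5584 and 3593 (log2 -0.75 ± 0.29, limma, adjusted p = 0.339) and overlapped input, while Itgam was at 0.42 and Tlr2 at 0.50. H3K27ac medians for these 2 lists were -0.17 and -0.06. TCA cycle genes had a median of -0.09 over 25 regions.

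The cell cycle and replication list had the highest median of those with more than 20 lead regions, 0.26 over 27. Both Nur77 libraries lay above both GFP libraries in 9 of the 27 and below in 1 (22.5% and 21.1% over all tested regions). Rb1, the retinoblastoma repressor of E2F factors, shared a region with Lpar6 that held 206 and 387 tags against 456 and 872 (log2 1.16 ± 0.39, limma, adjusted p = 0.292), E2f2 was at 0.54 and Ccnd1 at 0.74. The one gene with both Nur77 libraries below was Cdkn1a, the inhibitor of cyclin-dependent kinases, at -0.54, over input. BCL2 family genes had a median of 0.05; Bik, a pro-apoptotic member, was at 1.20 and Pmaip1 at 0.66. For the machinery itself, Pol II subunits and pause-release factors had a median of -0.05 (range -0.54 to 0.44 over 26 regions), housekeeping and ribosomal genes 0.03 (-0.28 to 0.34 over 22), and Pol III genes 0.06 over 21. Genes of other cell types had the lowest median of the lists, -0.33 over 7 lead regions, with 3 below and 1 above (21.1% and 22.5% over all tested regions). Cdh1, an epithelial cadherin, was at -1.28, with GFP and Nur77 values that overlapped, and Elane, neutrophil elastase, at -0.67. The one above was Kdr, a VEGF receptor, with 98.6 and 124 tags against 310 and 252 (log2 1.33 ± 0.23, limma, adjusted p = 0.143).

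**Figure D4:**
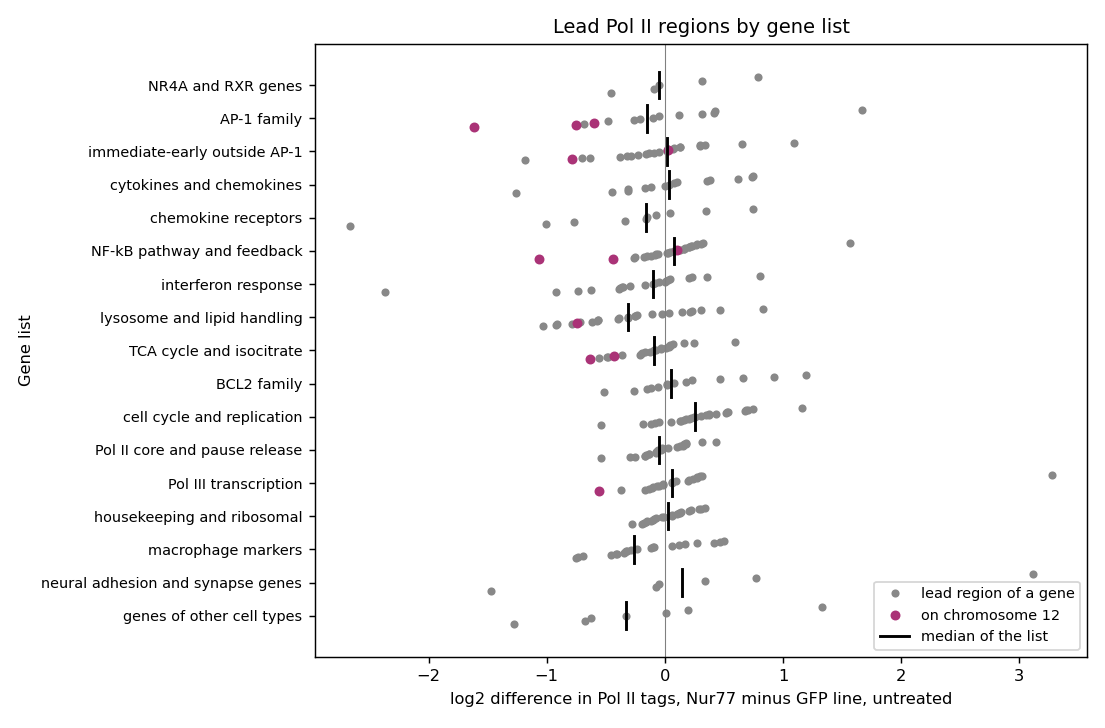
Log2 difference in untreated Pol II tags (Nur77 minus GFP line) of the lead region of each gene, by list; purple, chromosome 12; black bars, list medians. The medians lie between -0.33 and 0.26, and Bdp1 and Cntn4 are the points past 3.

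Regions that separated the lines in both replicates were common at smaller size. Both Nur77 libraries lay above both GFP libraries in 4502 regions (22.5%) and below in 4227 (21.1%). A difference of at least 2-fold was added in 856 (4.28%) and 908 (4.54%). These were weak regions, with median tags of 52.7 and 53.0 against 136 over all tested, and few contained a start site, 14.1% and 17.2% against 41.8%. Put the other way, 1.45% of the 8347 start-site regions were 2-fold higher and 1.87% lower, while in regions inside genes without a start site the shares were 6.31% and 6.18%. Of the lower set 118 regions (13.0%) lay on chromosome 12, of the higher set 5. Without GFP replicate 2, which left 1 GFP library, the sets grew to 1572 and 1650; without Nur77 replicate 1 they were 1077 and 1094.

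H3K27ac and Pol II after LPS, measured in libraries that played no part in choosing the 2 sets, moved the same way. Of the 856 higher regions, 787 had H3K27ac in all 4 of its libraries. In 738 of them both Nur77 values lay above both GFP values, with a median log2 difference of 0.83. The share was 35.0% of the 18953 tested regions with H3K27ac in all 4 libraries. Of the 908 lower regions, 737 had H3K27ac and 632 lay below (35.0% of the same 18953), with a median of -0.87. Without chromosome 12 this was 531 of 633. After LPS, Pol II lay above in 491 of 618 higher regions, with a median of 1.08, and below in 426 of 639 lower regions, with a median of -1.05. Each share was 22.7% of the 17687 tested regions with a peak in all 4 LPS libraries. HA-Nur77 peaks, which only the Nur77 line can give, were present in all 3 untreated HA libraries in 57.9% of the higher set, 25.4% of the lower set and 37.5% of all tested regions. Without Nur77 replicate 1, H3K27ac lay on the same side in 896 of 994 higher and 751 of 925 lower regions. Without GFP replicate 2 this was 1181 of 1495 and 993 of 1365, and the H3K27ac medians were nearer 0, at 0.51 and -0.53.

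**Figure D5:**
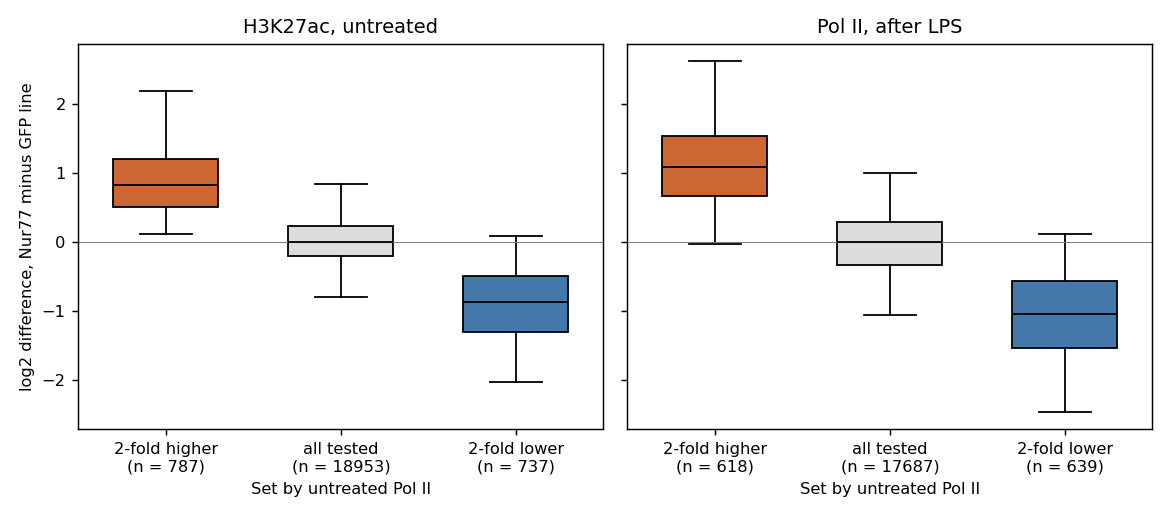
Log2 difference (Nur77 minus GFP line) of H3K27ac without LPS (left) and of Pol II after LPS (right) in regions at least 2-fold higher in both Nur77 libraries by untreated Pol II, in all tested regions and in those at least 2-fold lower. Boxes span the quartiles with the median as a line, whiskers the 5th to 95th percentile; the medians are 0.83 and -0.87 for H3K27ac and 1.08 and -1.05 for Pol II after LPS, and near 0 over all.

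Several genes in the 2-fold sets were picked after their values were seen, to show which kinds of gene they hold; none passed the test. Higher in both Nur77 libraries were Clec10a, a galactose-binding lectin of macrophages, with 352 and 151 tags against 1643 and 933 (log2 2.42 ± 0.43), and C5ar1, the receptor for complement C5a, with 133 and 282 against 476 and 607 (log2 1.46 ± 0.35). Cst3, the cathepsin inhibitor cystatin C, held 714 and 820 against 1362 and 2354 (log2 1.23 ± 0.27). Regions at Hoxa7, a homeobox gene, and Igf2bp3, an oncofetal RNA-binding protein, were low in the GFP line, with 38.6 and 58.5 tags at Hoxa7 against 343 and 236 (log2 2.56 ± 0.32). H3K27ac differed at these 5 regions by 0.70 to 2.19.

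Lower in both were Clec2d, a ligand of lymphocyte NK receptors, with 887 and 251 tags against 36.7 and 44.2 (log2 -3.52 ± 0.55), and Il7r, the interleukin-7 receptor chain, with 801 and 656 against 187 and 202 (log2 -1.89 ± 0.18, limma, adjusted p = 0.076). Lgals3, galectin-3, held 4915 and 2905 against 1382 and 1346 (log2 -1.47 ± 0.27), and Ifitm3, an antiviral membrane protein that shares its region with Ifitm6, 2393 and 1285 against 728 and 571 (log2 -1.44 ± 0.30). Flrt2, on chromosome 12, held 1965 and 1000 against 336 and 353 (log2 -2.02 ± 0.31). In Clec2d, Flrt2, Ifitm3 and Lgals3 the GFP replicates themselves differed widely, as the values show. The Lgals3 and Il7r regions overlapped a region of an untreated input library.

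Some regions were called in one line only. There were 283 with a peak in both Nur77 libraries and no GFP library (0.695% of merged regions) and 1761 with a peak in both GFP libraries and no Nur77 library (4.33%). Nur77 replicate 1 had the fewest peaks; without it the counts were 3561 and 2018, and with all lists cut to the same length 568 and 1150. The Nur77-only regions held a median of 22.2 deposited tags and the GFP-only regions 13.9, against medians of 41.8 to 80.0 over all peaks of a library. Start sites were present in 23 of the former (8.13%) and 76 of the latter (4.32%), against 41.8% of tested regions. Of the GFP-only regions 173 (9.82%) lay on chromosome 12, of the Nur77-only regions 9 (3.18%), and of tested regions 3.90%. After LPS, 81 of the 283 were again called only in Nur77 libraries and 338 of the 1761 only in GFP libraries, against 1.05% and 3.54% of all merged regions. A peak in all 4 LPS libraries was present in 57 of the former and 339 of the latter, and none in 79 and 438. Of the 19991 tested regions, 17687 had a peak in all 4 LPS libraries. Shares over all merged regions were not computed for start sites, chromosome 12 or these LPS patterns.

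The strongest Nur77-only region lay in Chd2, which encodes a chromatin remodeller (chr7:73509962-73515456). It held 1855 and 1007 deposited tags in the Nur77 libraries and no peak in the GFP libraries, and after LPS 4468 and 3264 with again no GFP peak. H3K27ac there was 35.8 and 47.6 tags in the Nur77 libraries and 16.3 in the one GFP library with a peak. Zic5, a zinc-finger gene of neural development, followed with 447 and 312 tags over its start site, and Arhgef33, a guanine nucleotide exchange factor gene, with 304 and 217. Both had H3K27ac in the Nur77 line, at 160 and 181 tags for Zic5 and 77.6 and 83.3 for Arhgef33, none in the GFP line, and no HA peak. Rasgrf2, a Ras exchange factor, held 343 and 177 tags and an HA peak in all 3 libraries. The GFP-only regions were weaker and less even: Hecw2, a ubiquitin ligase gene, held 257 and 30.8 tags in the 2 GFP libraries, Mettl9, a histidine methyltransferase gene, 193 and 30.3, and Gm38543 on chromosome 12, 120 and 89.4. Hecw2, Mettl9 and Gm38543 kept H3K27ac in both lines, at 83.7 and 98.5 tags against 26.8 and 26.1 for Hecw2. After LPS, Hecw2 had a Pol II peak in all 4 libraries. Mettl9 had one in the GFP libraries and Nur77 replicate 1, and Gm38543 in the GFP libraries only.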

How the data were processed

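Untreated Pol II libraries of the Nur77 and GFP lines were compared. The submitters' processing notes name HISAT2 2.1.0, HOMER and the mm10 build. Per the file headers, the authors called each library alone with findPeaks in its histone style and deposited each region's signal as tags per 10 M mapped, with at most 1 tag per position. A library without a peak in a region has no value there.

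Peaks were merged at 1 bp of overlap, and tags and covered length summed per library. Regions with a peak in all 4 libraries were scaled by trimmed mean of M-values (TMM) and tested with limma 3.58.1 (R 4.3.3; trend, log2 of tags + 1, Benjamini-Hochberg), after a test on simulated data. Genes are RefSeq spans (GRCm38.p6) with 1 kb on each side; all 392 list genes matched. Overlap with input was judged on regions or peaks of the untreated inputs. Values of H3K27ac, Pol II after LPS, HA and input are the summed tags of every peak that touches a region, so parts outside it are included. In tested regions H3K27ac and Pol II after LPS were scaled by the median ratio between libraries. HA and input values, and all values of regions called in one line only, are as deposited.

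Regions named are those over Nr4a1, up to 10 called per direction by size, up to 8 per direction with the smallest p and no input overlap, the 3 lead regions with the smallest p of each list, and the 6 strongest of one line only; others are said to have been picked later, and further list members are given to show a list's spread. Lists, members and rules were chosen with earlier results of these data known. Intervals for peak counts were not computed, since depth enters the calling itself. Whole reads could not be recovered from the values, so no count model was run.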

Additional observations from a re-analysis of the deposited data

How the results depend on the processing

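Counts past an adjusted p of 0.05 (3 higher, 1 lower) depended on the settings; the causes were not tested. With limma they were 124 and 73 with no further scaling, which moved the median of all regions to 0.18; 34 and 172 per base of covered length, with that median at -0.19; 19 and 10 in a fit of all 8 Pol II libraries. With a peak required in at least 2 of 4 libraries they were 0 and 0 (1387 and 2872 at an unadjusted p under 0.05). The lower count was 0 with no filter, without the weakest peaks of each library and without regions over input, where the higher counts were 2, 3 and 3. Leaving out 1 library gave 8 to 368 higher and 18 to 283 lower (34 and 18 without GFP replicate 1, 368 and 283 without GFP replicate 2, 8 and 23 without Nur77 replicate 1, 28 and 76 without Nur77 replicate 2); the lone library is then assumed to vary like the other line, and the 4 regions called from all libraries passed each time. With the replicate number as a block they were 1255 and 1516, and 439 and 592 in all 8 libraries; deviations of same-numbered libraries correlated at 0.473 over regions, but 2 pairs cannot show that the numbers pair the samples.

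Line-only regions numbered 568 (Nur77) and 1150 (GFP) with lists of equal length, and 416 to 3561 and 2018 to 5648 with 1 library left out. The covered length difference ran from -0.0021, without GFP replicate 1, to 0.076, and that of summed tags from 0.039 to 0.156. Alternatives chosen after seeing the data gave a chromosome 12 median of -0.52 without regions over input, -0.35 with no further scaling, -0.45 per base, and -0.57 to -0.51 with 1 library left out; the 2-fold sets then held 718 to 1572 and 869 to 1650 regions. Without chromosome 12, also added later, 3 and 1 regions were called, and 2 and 1 with values centred per chromosome. Over 69 regions named in the text there were 1203 alternative values. Of these, 992 kept their direction and side of the threshold, 12 lost and 193 gained a call, and 6 reversed, none past the threshold. Per base, Mrtfa was at -0.12 and the regions upstream of the Nr4a1 start site at -0.14 and -0.040, all above the per-base median of all regions, -0.19. Nfkbia ran from -0.0077 without GFP replicate 1 to 0.205 without GFP replicate 2. Zfp36l1 was at -0.074 without GFP replicate 2 and -0.067 without Nur77 replicate 1, and up to 0.118 without Nur77 replicate 2. The planned count model was not run, since whole reads could not be recovered.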
